A study of Mus musculus with 6 samples.

Results

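Cells move, engulf particles and hold their shape by building filaments from actin monomers and by pulling on them with myosin motors. The Arp2/3 complex, switched on by proteins of the WASP, WAVE and WASH family, starts branches on existing filaments. Profilin and the thymosins hold monomers, cofilin and gelsolin sever filaments, capping proteins stop their growth, and tropomyosins, bundling proteins and myosins set how finished filaments are used. Macrophages depend on this machinery for crawling and phagocytosis, and genes of the set are among their most abundant transcripts.

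The actin assembly and myosin genes described here were picked by a gene name pattern, chosen with earlier results of these data known. It covers the actins Actb, Actg1 and Acta2, and the named families of their assembly factors, crosslinkers, tropomyosins and myosins. The name pattern matched 93 of 55401 rows in the deposited gene table, after 2 rows named as pseudogenes (Actr3-ps and Capza1-ps1) were set aside. Of these 93 genes, 67 had enough reads to be tested and 26 did not.

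The series holds RNA-seq of mouse bone-marrow-derived macrophages, which are bone marrow cells of C57BL/6 mice grown for 7 days in medium with 10% FBS and 40 ng/mL M-CSF, the growth factor that drives macrophage differentiation. There were 3 libraries labelled KO, from Mettl3-/- cells, and 3 libraries labelled WT. Mettl3 encodes the catalytic subunit of the complex that places m6A on RNA. The labels mention a later treatment without naming it, and they give neither age, sex, nor the allele or Cre behind the genotype. Nothing in the labels ties the replicates to different animals or dishes. The p-values below thus measure only the spread between these libraries, which may be technical.

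The estimated counts summed to between 68145877 and 77997742 in the libraries labelled KO, and to between 67280390 and 68658821 in WT libraries. Mettl3 itself (mm10 chr14:52294841-52305128, minus strand) stood at 2.50, 2.56 and 2.93 FPKM (fragments scaled to transcript length and to library size) in the libraries labelled KO, against 2.62, 2.91 and 2.26 FPKM in WT libraries. The groups overlapped, and the log2 fold change was 0.022 (SE 0.11, edgeR adjusted p = 0.93), so this transcript did not separate the labels. Its last bases overlap Tox4 on the opposite strand, which averaged 18.8 ± 0.51 FPKM in libraries labelled KO and 17.7 ± 0.083 FPKM in WT libraries (SD, n = 3 each), and no strand setting is stated for the counting. Every direction below is therefore one between libraries as labelled. All 8 macrophage markers were above 1 FPKM in both groups.

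In the libraries labelled KO, 16 of the 67 tested genes were lower and 3 were higher (edgeR quasi-likelihood test, adjusted p under 0.05 over all 16256 genes tested). The 16 that fell were Acta2, Arpc3, Was, Tmsb10, Cfl1, Gsn, Vill, Capg, Capzb, Capza2, Coro1a, Coro1c, Actn1, Tpm4, Tpm1 and Myo1g. The 3 that rose were Myo9b, Myh9 and Fscn1. The falls were small: their log2 fold changes ran from -0.45 to -0.082, with a median of -0.13. Over all genes tested, 5.67% were called lower and 7.01% higher.

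Of the 67 tested genes, 44 averaged at least 10 FPKM, a level at which genes were called more often. Among these 44, 12 were called lower and 2 higher, beside 13.4% lower and 14.7% higher of all 3966 tested genes at that level. Counting direction alone, 47 of the 67 (70.1%) had a negative log2 fold change, against 50.7% of all genes tested. Their median log2 fold change was -0.087, against -0.0049 for all genes. The median size of a change, without its sign, was 0.12 for the actin and myosin genes and 0.18 for all genes. In 31 of the 67, all 3 libraries labelled KO lay below all 3 WT libraries, which 14.6% of all tested genes did. In 10 of the 67 they all lay above, which 19.1% of all tested genes did. Abundant genes were less often overlapping. Among the 44 at 10 FPKM or more, 25 lay all below and 6 all above, beside 24.0% and 28.3% of all tested genes at that level. There 77.3% of the 44 had a negative log2 fold change, against 52.0%. The median size of a change was 0.096 for the 44 and 0.12 for all genes at that level. Leaving out any 1 of the 6 libraries reduced the count of 16 lower genes to between 6 (without WT replicate 2) and 9 (without KO replicate 1 or 2), and the higher genes numbered 1 to 3. Calls over all genes tested became fewer too in those fits, at 3.18% to 3.66% lower and 4.07% to 4.44% higher.

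**Figure D1:**
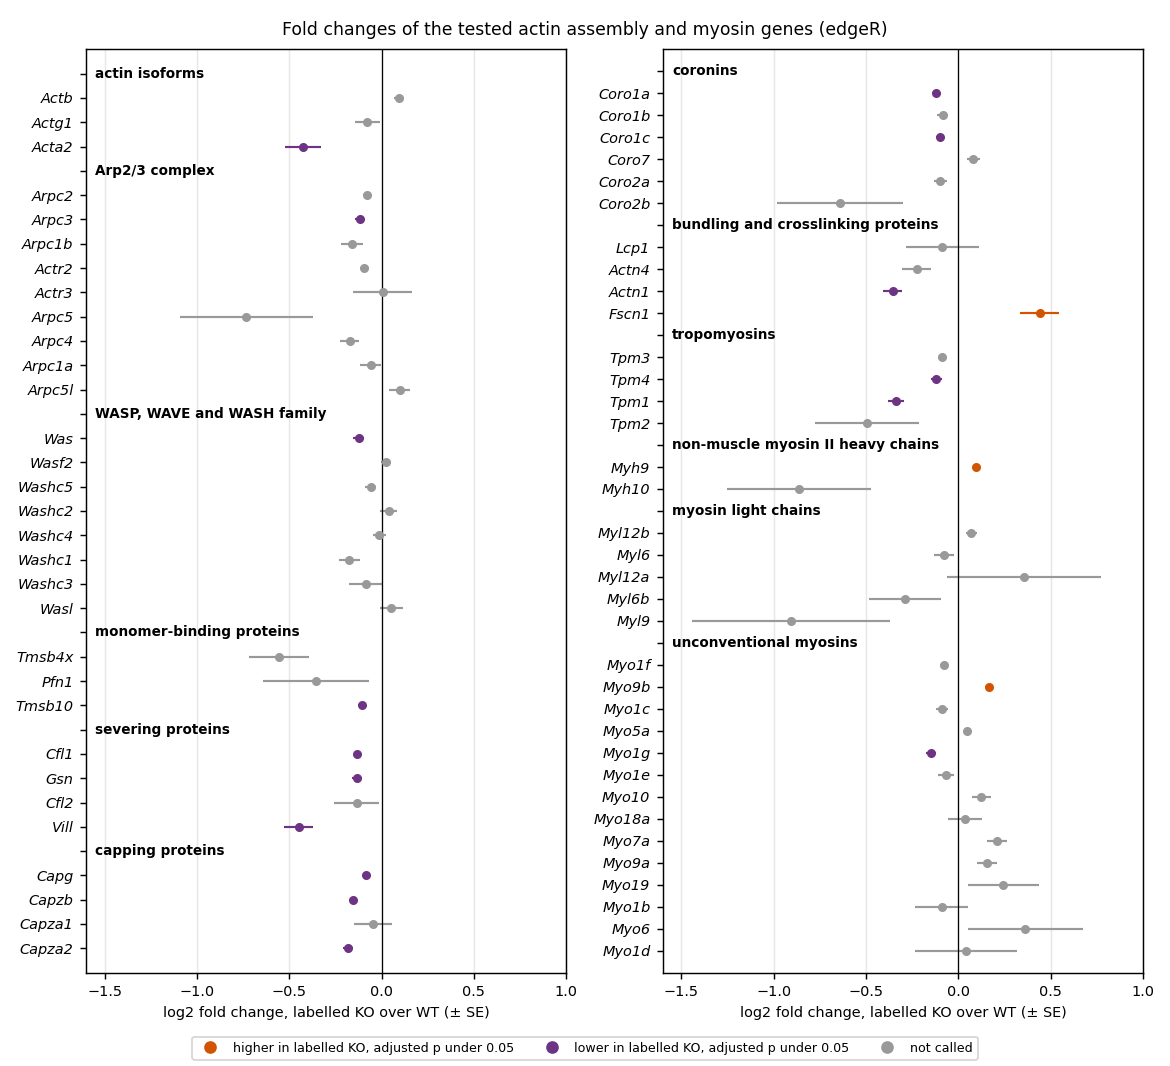
Each point is the log2 fold change, labelled KO over WT, of 1 tested gene with its SE (horizontal bar), grouped by role; purple points were called lower, orange points higher and grey points neither. It shows 66 of the 67 tested genes (Myo18b, with a very large SE, is left out), and most called points lie just left of 0.

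Levels ran from 0 counts to a mean of 1084 FPKM, that of Tmsb4x. Over all 6 libraries, 14 of the 93 genes averaged at least 100 FPKM, 30 lay between 10 and 100, 14 between 1 and 10, and 35 under 1. Tmsb4x (thymosin beta-4, which holds actin monomers) made up 22.2% of the summed mean FPKM of the 93 genes and Actb 11.7%, and the 6 most abundant genes together made up 50.3%. Genes of striated muscle such as Myl1, Myl2, Myl3 and Myl7 were among the 10 with 0 counts in every library. The 93 genes took 1.71%, 1.71% and 1.81% of all counts in the libraries labelled KO, against 1.88%, 1.87% and 1.83% in WT libraries. The groups did not overlap in this share, though the highest library labelled KO came close to the lowest WT library, and they did overlap once Tmsb4x and Pfn1 were taken out. In bulk RNA, fewer cells of a type and less RNA per cell cannot be told apart.

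**Figure D2:**
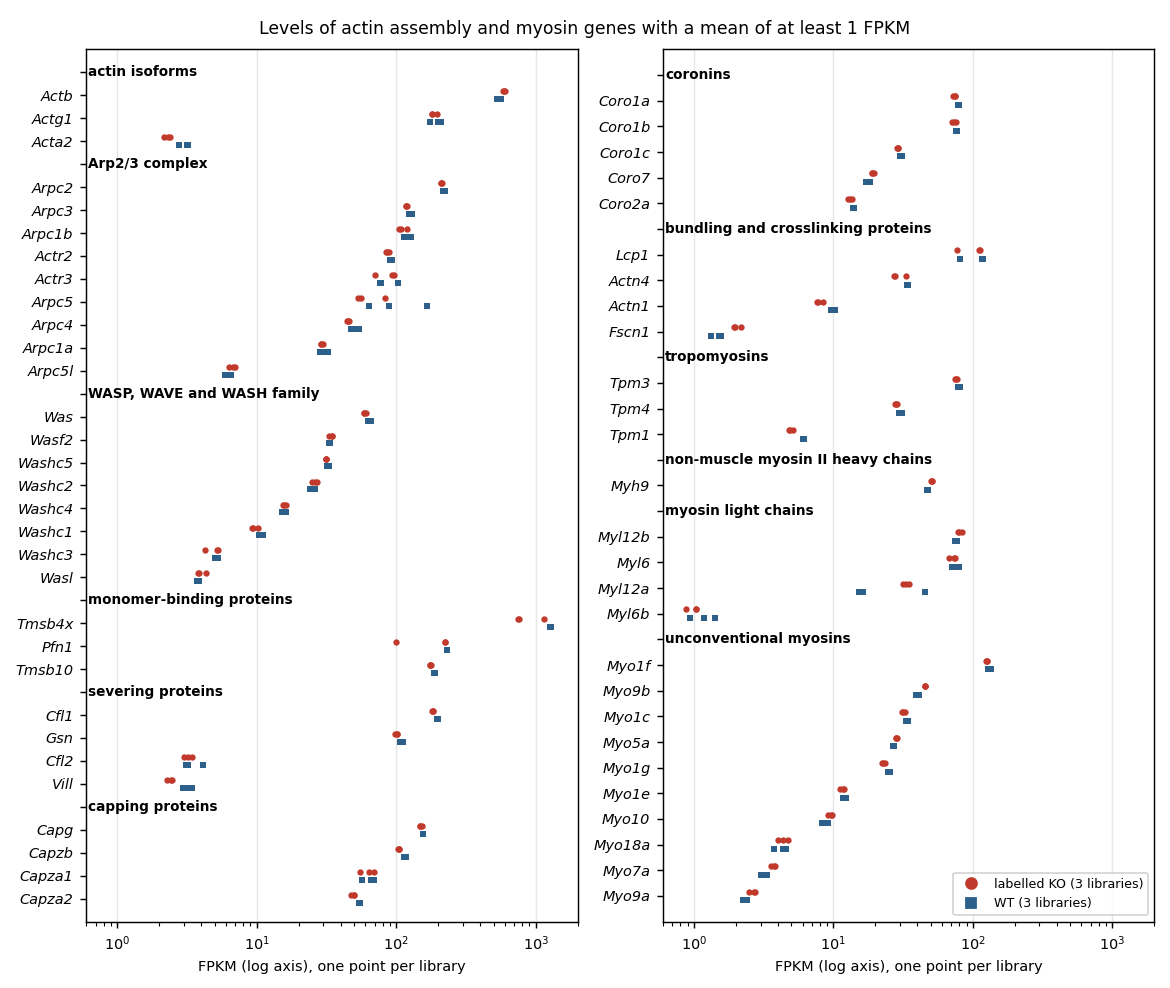
Each row is 1 of the 58 actin and myosin genes with a mean of at least 1 FPKM, and each point is 1 library on a log axis in FPKM, with red circles for libraries labelled KO and blue squares for WT. Tmsb4x lies furthest right, and the points of most genes lie close together.

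The 3 actin genes behaved differently. Actb, the main cytoplasmic actin (chr5:142903115-142906754, minus strand), stood at 594, 602 and 587 FPKM in libraries labelled KO, against 554, 569 and 530 FPKM in WT libraries. All 3 libraries labelled KO were above all WT libraries, but the log2 fold change of 0.093 (SE 0.027) missed the threshold (edgeR adjusted p = 0.073), though it passed without WT replicate 2 (edgeR adjusted p = 0.0379) and with limma on log2 FPKM (adjusted p = 0.0493 and 0.0499 with the pseudocounts 0.1 and 1). Acta2, the smooth muscle actin (chr19:34241090-34255590, minus strand), had 2.30, 2.18 and 2.39 FPKM in libraries labelled KO, against 2.77, 3.14 and 3.21 FPKM in WT libraries. The groups did not overlap, and Acta2 fell by 0.42 on the log2 scale (SE 0.096, edgeR adjusted p = 0.0354). Of the 6 fits that each omit a library, the one omitting WT replicate 1 kept that call; in the rest edgeR adjusted p reached 0.106.

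Because Acta2, Tpm1 and Actn1 are also abundant in fibroblasts and smooth muscle, markers of those cells were read beside them. None of the 13 reached 1 FPKM on average, 3 averaged under 0.01 FPKM, and their summed level was 2.97 to 3.14 FPKM in libraries labelled KO and 3.04 to 3.60 FPKM in WT libraries. Of the 9 markers tested, 1 was higher (Dcn, at 0.43 FPKM in libraries labelled KO and 0.26 FPKM in WT libraries) and 0 were lower. Over all genes tested, 7.01% were called higher and 5.67% lower. By direction alone, 7 of the 9 had negative and 2 positive log2 fold changes, with a median of -0.19. Tagln, which smooth muscle makes in quantity, ranged over 0.552 to 0.736 FPKM in libraries labelled KO and 0.700 to 0.996 FPKM in WT libraries. Myh11, the smooth muscle myosin heavy chain, reached at most 0.0253 FPKM in any library. The part of such cells in the fall of Acta2 was not tested.

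Actg1, the other cytoplasmic actin (chr11:120345690-120348542, minus strand), had 181, 196 and 180 FPKM in libraries labelled KO and 198, 174 and 209 FPKM in WT libraries. The groups overlapped, and at -0.077 on the log2 scale Actg1 was not called (edgeR adjusted p = 0.553). Pseudogenes carry near-identical copies of its transcript, among which read counting could split reads. Comparing the reference transcripts of the abundant genes with all others (at least 95% identity over at least 200 bases) gave 6 pseudogene rows for Actg1. The closest was Gm12715 on chromosome 4, which matched Actg1 at 99.6% over 1128 bases and held counts of 8102, 4611 and 9470 in libraries labelled KO, and 3845, 7652 and 703 in WT libraries. Gm12715 was high wherever Actg1 was low.

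Summing Actg1 with its 6 pseudogene rows reduced that scatter. Actg1 alone stood at 540, 587 and 538 CPM (counts scaled to library size) in libraries labelled KO, against 593, 521 and 621 in WT libraries. With the pseudogene rows added, the libraries labelled KO had 667, 672 and 677 CPM and the WT libraries 668, 652 and 645. The ratio of the highest to the lowest library dropped to 1.04 with those rows, against 1.19 without them. The log2 fold change then turned positive, at 0.019 (edgeR adjusted p = 0.584), so Actg1 has no settled direction here.

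Capza1, an alpha subunit of capping protein, has such a copy in Capza1-ps1 on chromosome 1, which matched it at 99.5% over 2859 bases. Capza1 alone had 294, 233 and 273 CPM in libraries labelled KO, against 242, 294 and 281 in WT libraries. With its 2 pseudogene rows it had 308, 296 and 291 CPM in libraries labelled KO and 304, 310 and 302 in WT libraries. The ratio of highest to lowest library was 1.06 with those rows and 1.26 without them, and Capza1-ps1 was highest in KO replicate 2 and WT replicate 1, where Capza1 was lowest.

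**Figure D3:**
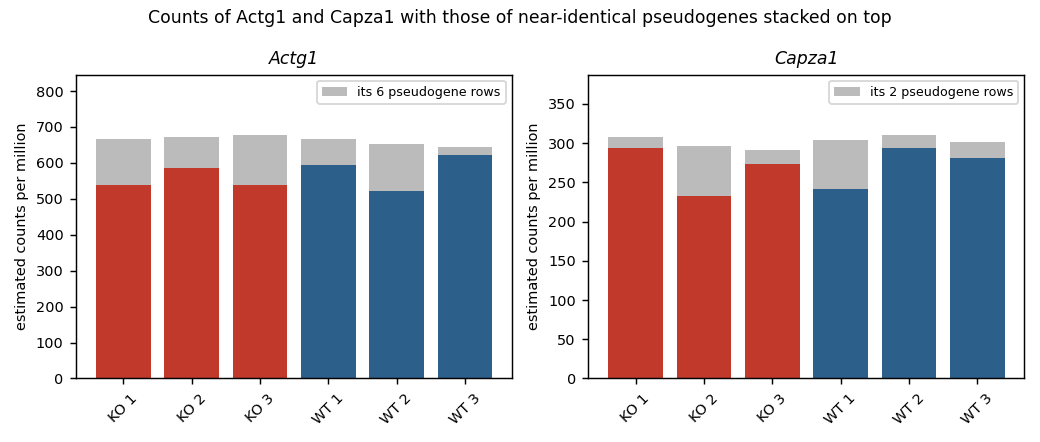
CPM of Actg1 and Capza1 in each library, labelled KO and WT, with the gene itself as the coloured part of each bar (red for labelled KO, blue for WT) and its near-identical pseudogenes stacked on top in grey. The summed values of Actg1 lie between 645 and 677 and those of Capza1 between 291 and 310, closer together than the values of the genes alone.

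Of the 10 Arp2/3 complex genes, 9 were tested and 1 was called. Calls by role, here and below, stand beside 5.67% lower and 7.01% higher over all genes tested. At 10 FPKM or more those shares were 13.4% and 14.7%. Arpc3, a small structural subunit, had 119, 119 and 118 FPKM in libraries labelled KO and 130, 127 and 123 FPKM in WT libraries. It fell by 0.12 on the log2 scale (SE 0.025, edgeR adjusted p = 0.029), with no overlap. The call stayed when WT replicate 3 was omitted and went when any of the rest was (edgeR adjusted p up to 0.0914). The core subunit Arpc2 averaged 211 ± 3.61 FPKM in libraries labelled KO and 220 ± 2.49 FPKM in WT libraries (SD, n = 3 each), -0.078 on the log2 scale (edgeR adjusted p = 0.0596). The actin-related subunit Actr2 was similar, at 86.4 ± 1.80 FPKM in libraries labelled KO and 91.2 ± 2.09 FPKM in WT libraries (log2 fold change -0.095, edgeR adjusted p = 0.0562). Neither passed the test, though both did with upper-quartile factors (edgeR adjusted p = 0.0296 for Arpc2 and 0.0245 for Actr2). Among the rest, the regulatory subunit Arpc1b had a log2 fold change of -0.16, Arpc4 -0.17, Arpc1a -0.060 and Arpc5l 0.098, and edgeR called none of them, while DESeq2 called Arpc4 lower (adjusted p = 0.0326). Actr3b had too few reads to test.

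The subunits Arpc5 and Actr3 varied widely within groups. Arpc5 had 56.2, 83.4 and 53.7 FPKM in libraries labelled KO, against 165, 63.8 and 88.8 FPKM in WT libraries. WT replicate 1 stood far above every other library, the groups overlapped, and the log2 fold change of -0.73 (SE 0.36) was not called (edgeR adjusted p = 0.261). Without WT replicate 1 it was -0.26 (edgeR adjusted p = 0.585). Actr3 had 96.7, 70.6 and 94.1 FPKM in libraries labelled KO and 77.3, 104 and 76.3 FPKM in WT libraries, which overlap almost entirely. Its log2 fold change was 0.0057 (adjusted p = 0.988 by edgeR), and the sign turned when some single libraries were left out.

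Of the 10 genes of the WASP, WAVE and WASH family, 8 were tested and 1 was called. Was, the blood-cell WASP that is mutated in Wiskott-Aldrich syndrome, had 58.7, 60.6 and 58.9 FPKM in libraries labelled KO, against 62.5, 65.5 and 64.1 FPKM in WT libraries. It fell by 0.12 on the log2 scale (SE 0.030, edgeR adjusted p = 0.0421) with no overlap, but the call was lost whichever library was left out (edgeR adjusted p between 0.0555 and 0.121). Its widely expressed relative Wasl averaged 3.99 ± 0.27 FPKM in libraries labelled KO and 3.80 ± 0.063 FPKM in WT libraries, and was not called. The ratio of Was to Wasl in FPKM was 14.9 ± 0.71 in libraries labelled KO and 16.8 ± 0.23 in WT libraries (SD, n = 3 each), without overlap. The most abundant WAVE gene, Wasf2, differed by 0.025 on the log2 scale (edgeR adjusted p = 0.618). Wasf1 and Wasf3 had too few reads to test. The 5 WASH complex genes, which act on endosomes, had log2 fold changes between -0.17 (Washc1) and 0.039 (Washc2), and none was called.

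The monomer-binding proteins carried the largest differences in FPKM. Tmsb4x (chrX:167207093-167209315, minus strand) had 748, 759 and 1143 FPKM in libraries labelled KO, against 1276, 1289 and 1288 FPKM in WT libraries. The 3 WT libraries agreed within 1.01 times, while KO replicate 3 lay well above the other two libraries labelled KO and near the WT level. The log2 fold change of -0.56 (SE 0.16) was not called (edgeR adjusted p = 0.0775), but without KO replicate 3 it was -0.79 (edgeR adjusted p = 3.86e-05), and DESeq2 gave an adjusted p of 0.0438 with all 6 libraries. Tmsb10, a second thymosin, showed no such scatter: it had 179, 175 and 175 FPKM in libraries labelled KO, against 186, 189 and 188 FPKM in WT libraries. It fell by 0.11 on the log2 scale (SE 0.021, edgeR adjusted p = 0.0224). That call stayed when KO replicate 1 was omitted and went when any of the rest was (edgeR adjusted p up to 0.0744).

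Pfn1, profilin-1, which feeds monomers to growing filaments, had 100, 225 and 223 FPKM in libraries labelled KO, against 233, 232 and 230 FPKM in WT libraries. Only KO replicate 1 was far from the rest, and the log2 fold change was -0.36 (SE 0.29, edgeR adjusted p = 0.505). Without KO replicate 1 it was -0.062 (edgeR adjusted p = 0.102). The low libraries therefore differed between these genes: KO replicate 1 for Pfn1, and KO replicates 1 and 2 for Tmsb4x. With Tmsb4x and Pfn1 taken out, the remaining genes summed to 3549, 3523 and 3541 FPKM in libraries labelled KO, against 3722, 3641 and 3633 FPKM in WT libraries. Those sums did not overlap, but the FPKM of all rows also summed to less in libraries labelled KO. As a share of that total the remaining genes made up 1.11%, 1.11% and 1.11% in libraries labelled KO and 1.13%, 1.10% and 1.10% in WT libraries, which overlapped, as did their shares of counts. Both totals include the macrophage marker Lyz2, which averaged 6012 FPKM in libraries labelled KO and 14189 FPKM in WT libraries. The summed FPKM of all rows was 318519, 317613 and 318176 in libraries labelled KO, against 328515, 330806 and 330512 in WT libraries. Shares of a total without Lyz2 were not tested, so the overlap of these shares does not show that the remaining genes were level between groups.

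In all, 6 of the 44 genes with at least 10 FPKM differed by over 1.3 times between libraries of 1 group: Tmsb4x, Pfn1, Arpc5, Actr3, Lcp1 and Myl12a. That is 13.6%, against 14.3% of all tested genes at that level, so such scatter was as common elsewhere in the table. The libraries that stood apart were not the same from gene to gene. Sequence shared with coding relatives, such as Myl12b for Myl12a, was not checked, but sequence shared with pseudogene rows was, as for Actg1. Tmsb4x, Pfn1, Arpc5 and Lcp1 had 0 such rows, and adding them for Actr3 and Myl12a left ratios of 1.34 and 2.95 between the highest and lowest library. For the other genes replicates were close: the median coefficient of variation over the 44 genes was 2.07% in libraries labelled KO and 2.15% in WT libraries.

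**Figure D4:**
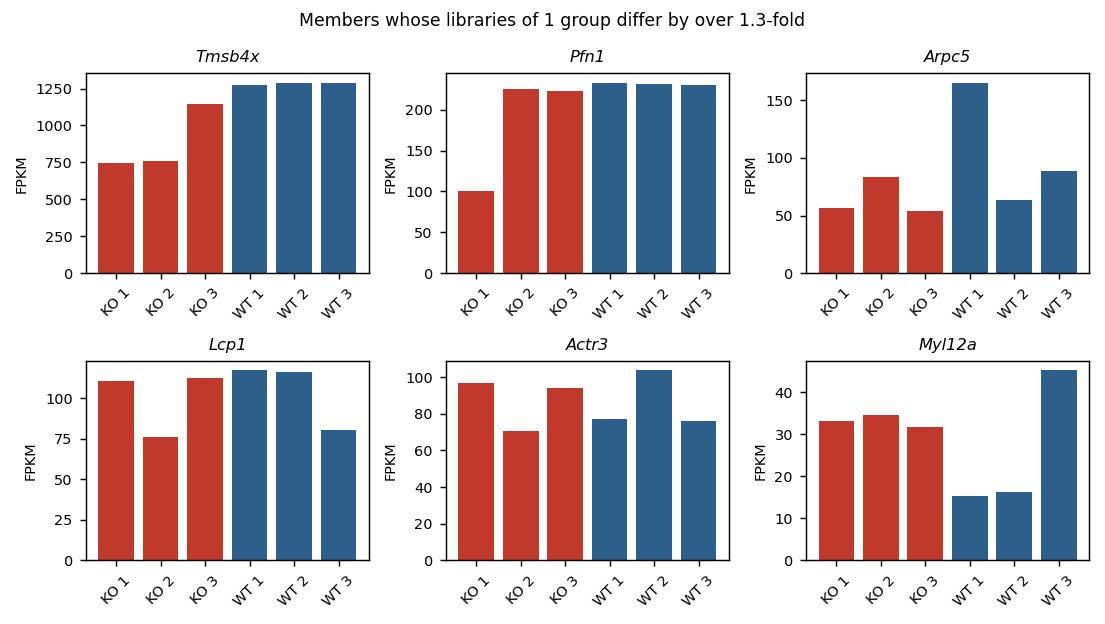
Bars give the FPKM in each library, red for labelled KO and blue for WT, of the 6 abundant genes whose libraries differed by over 1.3 times within a group. The outlying library differs between genes, such as KO replicate 1 for Pfn1, WT replicate 1 for Arpc5 and WT replicate 3 for Myl12a.

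Severing and capping genes had 3 calls each, all of them falls. Of the 4 severing genes tested, 3 fell, and all 4 had negative log2 fold changes. Beside these small counts, 5.67% of all genes tested were called lower, and 13.4% of those at 10 FPKM or more. Negative log2 fold changes made up 70.1% of the 67 genes and 50.7% of all genes tested. Cfl1, cofilin-1, the main filament-severing protein of non-muscle cells (chr19:5490455-5495201, plus strand), had 184, 182 and 185 FPKM in libraries labelled KO, against 201, 197 and 198 FPKM in WT libraries. The groups were well apart for so abundant a gene, and Cfl1 fell by 0.13 on the log2 scale (SE 0.017, edgeR adjusted p = 0.00428), a call kept whichever library was left out. Its muscle-type relative Cfl2 averaged 3.21 ± 0.21 FPKM in libraries labelled KO and 3.48 ± 0.55 FPKM in WT libraries and was not called.

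Gsn, gelsolin, a calcium-driven severing protein, had 102, 98.1 and 101 FPKM in libraries labelled KO, against 106, 111 and 109 FPKM in WT libraries, and fell by 0.13 on the log2 scale (SE 0.027, edgeR adjusted p = 0.0253). Vill, a villin-like relative of gelsolin at a low level, had 2.48, 2.42 and 2.26 FPKM in libraries labelled KO, against 3.23, 2.99 and 3.44 FPKM in WT libraries. Its fall of 0.45 on the log2 scale (SE 0.080, edgeR adjusted p = 0.0152) was the largest among the genes called. Neither gene's groups overlapped. The call for Gsn stayed when WT replicate 1 was omitted and went with any of the rest (edgeR adjusted p up to 0.0842). The call for Vill was lost without KO replicate 3, WT replicate 1 or WT replicate 3 (edgeR adjusted p up to 0.057).

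Among capping proteins, which sit on the fast-growing filament end, 3 of the 4 tested fell, beside 13.4% of all tested genes at 10 FPKM or more. The beta subunit gene Capzb had 103, 106 and 104 FPKM in libraries labelled KO, against 113, 113 and 118 FPKM in WT libraries. Capza2, an alpha subunit, had 49.8, 49.7 and 47.5 FPKM in libraries labelled KO, against 54.4, 55.2 and 55.2 FPKM in WT libraries. Both were apart in all libraries: Capzb fell by 0.16 (SE 0.023, edgeR adjusted p = 0.00821) and Capza2 by 0.18 (SE 0.025, edgeR adjusted p = 0.00555) on the log2 scale, and both calls held whichever library was left out. Capg, a gelsolin relative that caps without severing and is abundant in macrophages, averaged 149 ± 2.92 FPKM in libraries labelled KO and 156 ± 0.71 FPKM in WT libraries. It fell by 0.082 on the log2 scale (edgeR adjusted p = 0.0489). The call stayed when KO replicate 2 was omitted and went with any of the rest (edgeR adjusted p up to 0.132).

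The coronins bind filaments and help to turn over branches, and 2 of the 6 tested fell, beside 5.67% of all genes tested. Coro1a, the form typical of blood cells, had 74.0, 74.3 and 72.0 FPKM in libraries labelled KO, against 78.1, 79.2 and 79.5 FPKM in WT libraries, and fell by 0.12 on the log2 scale (SE 0.023, edgeR adjusted p = 0.0202). Coro1c averaged 28.8 ± 0.32 FPKM in libraries labelled KO and 30.6 ± 0.38 FPKM in WT libraries, and fell by 0.10 on the log2 scale (SE 0.021, edgeR adjusted p = 0.0257). Coro1b, at 73.1 ± 2.28 FPKM in libraries labelled KO and 76.6 ± 0.60 FPKM in WT libraries, was not called (edgeR adjusted p = 0.116). The call for Coro1a was lost without KO replicate 1, KO replicate 3, WT replicate 2 or WT replicate 3 (edgeR adjusted p up to 0.072). That for Coro1c stayed only with KO replicate 2 omitted (edgeR adjusted p up to 0.084). Coro2b, under 1 FPKM, differed by -0.64 on the log2 scale (SE 0.34, edgeR adjusted p = 0.301).

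The 4 bundling and crosslinking genes split. Actn1, an alpha-actinin that crosslinks filaments at adhesions (chr12:80167547-80260371, minus strand), had 8.41, 7.67 and 7.79 FPKM in libraries labelled KO, against 9.66, 10.3 and 10.3 FPKM in WT libraries. The groups did not overlap, and Actn1 fell by 0.36 on the log2 scale (SE 0.051, edgeR adjusted p = 0.00683), whichever library was left out. Its relative Actn4 had 27.5, 27.1 and 33.3 FPKM in libraries labelled KO, against 34.0, 33.9 and 33.6 FPKM in WT libraries. As for Tmsb4x, KO replicate 3 was near the WT level, and its difference of -0.23 on the log2 scale was not called (edgeR adjusted p = 0.129), but was -0.33 without KO replicate 3 (edgeR adjusted p = 0.00301), and DESeq2 called it with all 6 libraries (adjusted p = 0.0423). Lcp1, L-plastin, the bundling protein of white blood cells, had 111, 76.3 and 113 FPKM in libraries labelled KO and 118, 117 and 80.6 FPKM in WT libraries. KO replicate 2 and WT replicate 3 were low, the groups overlapped, and the log2 fold change was -0.087 (edgeR adjusted p = 0.835).

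Fscn1, fascin, which packs filaments into the straight bundles of filopodia (chr5:142960343-142973185, plus strand), was the bundling gene that rose. It had 1.93, 1.96 and 2.16 FPKM in libraries labelled KO, against 1.51, 1.32 and 1.57 FPKM in WT libraries. The groups did not overlap, and the rise was 0.44 on the log2 scale (SE 0.11, edgeR adjusted p = 0.0434), but the call was lost whichever library was left out (edgeR adjusted p between 0.0699 and 0.135). Fascin is abundant in mature dendritic cells. The 9 dendritic cell markers summed to 3.03 to 3.53 FPKM in libraries labelled KO and 2.20 to 3.06 FPKM in WT libraries. Of these markers, 1 averaged at least 1 FPKM and 2 averaged under 0.01 FPKM. None of the 6 tested was called, beside 12.7% of all genes tested. Ccl22 and Ccr7, which mature dendritic cells make, averaged 1.02 ± 0.22 and 1.54 ± 0.11 FPKM in libraries labelled KO, against 0.59 ± 0.091 and 1.27 ± 0.22 FPKM in WT libraries (SD, n = 3 each). All libraries labelled KO were above all WT libraries for Ccl22 (log2 fold change 0.76, edgeR adjusted p = 0.074) and not for Ccr7 (0.27, edgeR adjusted p = 0.363). The 6 tested markers split, with 3 positive and 3 negative log2 fold changes. Those below 0 were Dpp4 (-0.46), Xcr1 (-0.14) and Zbtb46 (-0.0078). The dendritic cell receptor gene Flt3 reached at most 0.0173 FPKM in any library. The part of dendritic cells in the rise of Fscn1 was not tested.

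Tropomyosins, coiled rods that lie along filaments and govern which proteins reach them, had 4 negative log2 fold changes among 4 genes, and 2 were called. Over all genes tested, 50.7% were negative and 5.67% were called lower, while 70.1% of the set's tested genes were negative. Tpm1 (chr9:67022590-67049267, minus strand) had 4.79, 5.09 and 4.86 FPKM in libraries labelled KO, against 6.19, 6.14 and 6.09 FPKM in WT libraries. The groups were far apart relative to their spread, and Tpm1 fell by 0.34 on the log2 scale (SE 0.042, edgeR adjusted p = 0.00415), also without any single library. Tpm4 averaged 28.2 ± 0.42 FPKM in libraries labelled KO and 30.3 ± 0.56 FPKM in WT libraries. It fell by 0.12 on the log2 scale (SE 0.029, edgeR adjusted p = 0.0439), a call lost whichever library was left out (edgeR adjusted p between 0.0685 and 0.130). The most abundant, Tpm3, averaged 75.8 ± 1.38 FPKM in libraries labelled KO and 79.5 ± 1.44 FPKM in WT libraries and just missed the threshold (log2 fold change -0.086, edgeR adjusted p = 0.0505), but passed with median-of-ratios factors (edgeR adjusted p = 0.0493). The ratio of Tpm3 to Tpm4 overlapped between groups, at 2.69 ± 0.077 in libraries labelled KO and 2.63 ± 0.092 in WT libraries (SD, n = 3 each).

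Among motor genes the direction was mixed. Myh9, the heavy chain of non-muscle myosin IIA, the contractile motor of macrophages (chr15:77760587-77842175, minus strand), had 51.2, 50.3 and 51.1 FPKM in libraries labelled KO, against 46.8, 47.5 and 46.7 FPKM in WT libraries. It rose by 0.097 on the log2 scale (SE 0.016, edgeR adjusted p = 0.0129) with no overlap, a call lost without KO replicate 3 (edgeR adjusted p = 0.0507). Myh10, the heavy chain of myosin IIB, averaged 0.094 ± 0.053 FPKM in libraries labelled KO and 0.17 ± 0.016 FPKM in WT libraries. The difference of -0.86 on the log2 scale (SE 0.39) was not called (edgeR adjusted p = 0.224), although without KO replicate 1 it was -1.43 (edgeR adjusted p = 0.0282).

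Myosin light chains, which steady and switch those heavy chains, gave 0 calls among 5 tested genes. Myl12b, a regulatory light chain, averaged 80.5 ± 2.75 FPKM in libraries labelled KO and 75.8 ± 1.33 FPKM in WT libraries (log2 fold change 0.071, edgeR adjusted p = 0.224). The essential light chain Myl6 averaged 72.1 ± 3.71 FPKM in libraries labelled KO and 75.1 ± 4.58 FPKM in WT libraries (log2 fold change -0.077, edgeR adjusted p = 0.448). Neither difference passed the test. Myl12a, a close copy of Myl12b, had 33.1, 34.6 and 31.7 FPKM in libraries labelled KO, against 15.2, 16.2 and 45.3 FPKM in WT libraries. WT replicate 3 was above, and the other WT libraries below, all libraries labelled KO. The log2 fold change was 0.36 (edgeR adjusted p = 0.656) with it and 1.06 (edgeR adjusted p = 0.00118) without it. Myl9, the smooth muscle form, averaged 0.21 ± 0.11 FPKM in libraries labelled KO and 0.41 ± 0.14 FPKM in WT libraries, and its -0.91 on the log2 scale (SE 0.54, edgeR adjusted p = 0.348) was the largest difference of any tested gene of the set.

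Of the 25 unconventional myosins, which carry cargo or link membranes to actin, 15 were tested, 1 rose and 1 fell. Myo9b, a class IX myosin (chr8:71272714-71360712, plus strand), had 45.1, 45.3 and 45.3 FPKM in libraries labelled KO, against 39.2, 40.8 and 39.5 FPKM in WT libraries. It rose by 0.17 on the log2 scale (SE 0.022, edgeR adjusted p = 0.00519) with no overlap and whichever library was left out. Myo1g, a membrane-linking motor of blood cells, had 23.3, 22.5 and 22.7 FPKM in libraries labelled KO, against 25.04, 25.2 and 24.5 FPKM in WT libraries. It fell by 0.15 on the log2 scale (SE 0.026, edgeR adjusted p = 0.0158), a call lost without KO replicate 2, KO replicate 3, WT replicate 1 or WT replicate 2 (edgeR adjusted p up to 0.0586). The most abundant of the family, the class I myosin Myo1f, averaged 125 ± 1.77 FPKM in libraries labelled KO and 131 ± 3.02 FPKM in WT libraries and was not called (log2 fold change -0.080, edgeR adjusted p = 0.0685). In all, 9 of the 15 had positive log2 fold changes.

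Transcript length ran along with direction. The 16 genes that fell had reference transcripts of 690 to 3734 bases (median 2241), and the 3 that rose 2675 to 7433 bases (median 7297). Of the 22 tested genes with transcripts of 4000 bases or more, 2 were higher and 0 lower, with a median log2 fold change of 0.041. Of the 19 under 2000 bases, 0 were higher and 5 lower, and of the 26 between, 1 was higher and 11 lower. Across the 67 genes the Spearman correlation between length and log2 fold change was 0.36, against 0.12 across 16209 tested genes with a known length. Those values are across genes, which share libraries and are not independent. Over all tested genes, from the shortest to the longest class, 5.28%, 5.93% and 5.92% were called lower and 3.25%, 6.85% and 12.4% higher. Over all abundant genes, at 10 FPKM or more, the shares called lower were alike in the 3 length classes, at 13.8%, 13.8% and 12.2%, while the shares called higher were 8.42%, 16.0% and 23.7%. The part of length in the falls was not tested.

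**Figure D5:**
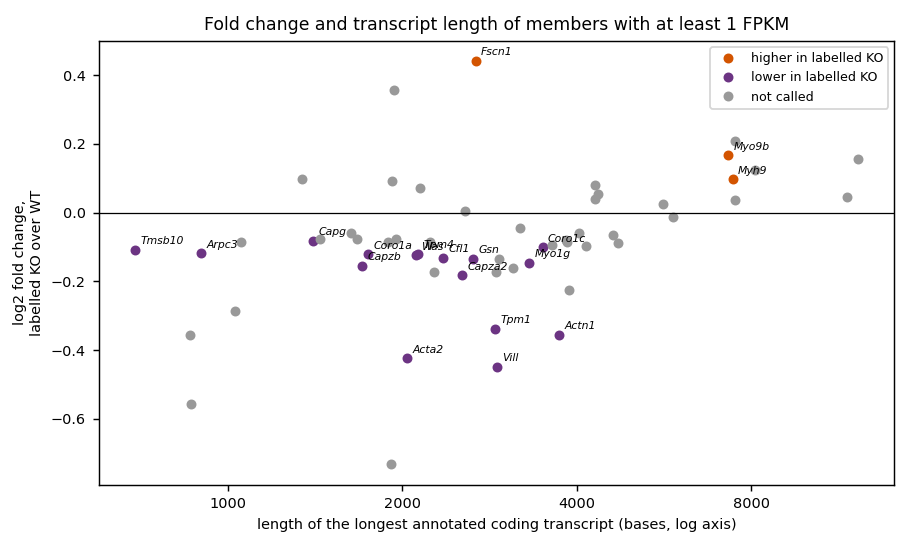
Each point is 1 of the 58 genes with a mean of at least 1 FPKM, placed by reference transcript length in bases (log axis) and log2 fold change, labelled KO over WT, and coloured by call. The genes called lower all lie under 4000 bases, and Myh9 and Myo9b, which rose, are among the longest called.

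Some genes of the set are textbook targets of SRF, a factor that responds to the pool of free actin monomers by binding the CArG box. The RefSeq promoters (build GRCm38.p6, from 250 bases before to 50 after the gene start) were searched for exact CArG boxes, a pattern whose matches are found alike from either strand. A box stood in 8 of the 82 genes of the set that have a promoter sequence (9.76%), against 488 of all 27025 genes (1.81%). Among tested genes it stood in 5 of 60 of the set (8.33%) and in 165 of 10654 of all (1.55%). These 5 are shown 5′ to 3′ on the gene's strand, with the box in capitals, because they carry the element. None of the 5 was called by edgeR, and DESeq2 called Arpc4.
Actg1: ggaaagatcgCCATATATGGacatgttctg
Myl6: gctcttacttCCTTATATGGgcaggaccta
Myo1e: gctgaattctCCATTTATGGacagattgcc
Myl9: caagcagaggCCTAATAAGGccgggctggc
Arpc4: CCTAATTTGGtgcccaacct
They lie at chr11:120348566-120348595 (Actg1, minus strand), chr10:128493040-128493069 (Myl6, minus strand), chr9:70207308-70207337 (Myo1e, plus strand), chr2:156775293-156775322 (Myl9, plus strand) and chr6:113377863-113377882 (Arpc4, plus strand). Counted from the RefSeq transcript start of each promoter, which can differ from the gene end given in the table (for Myl6 it is an internal start), the box begins 90 bases before the start of Actg1, 50 before that of Myl6, 32 before that of Myo1e, 161 before that of Myl9 and 250 before that of Arpc4, where the window opens.

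The box was in 0 of the 16 promoters of genes that fell and 0 of the 3 of genes that rose. A match describes letters in this window only. Myo1e, a membrane-linking myosin of phagocytic cups, averaged 11.6 ± 0.46 FPKM in libraries labelled KO and 11.98 ± 0.29 FPKM in WT libraries (SD, n = 3 each; log2 fold change -0.065, edgeR adjusted p = 0.391). Arpc4 averaged 45.2 ± 0.93 FPKM in libraries labelled KO and 50.3 ± 3.42 FPKM in WT libraries (log2 fold change -0.17, edgeR adjusted p = 0.0863). Srf itself, named after its values were seen, averaged 10.0 FPKM in libraries labelled KO and 10.3 FPKM in WT libraries and was not called (edgeR adjusted p = 0.624).

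The regulators around this machinery had a few calls in both directions. The counts of each list stand beside 7.01% higher and 5.67% lower over all genes tested. Of 15 tested formins and Ena/VASP genes, which lengthen unbranched filaments, 2 rose and 1 fell. Fhod1, a formin, averaged 10.6 ± 0.65 FPKM in libraries labelled KO and 7.19 ± 0.18 FPKM in WT libraries, a rise of 0.54 on the log2 scale (edgeR adjusted p = 0.00212). Fmnl2, another formin, rose by 0.23 (edgeR adjusted p = 0.0121) and Evl, an Ena/VASP protein, fell by 0.12 (edgeR adjusted p = 0.0197). Of 18 WAVE complex genes and WASP partners, 2 rose (the adaptor Nck1, and Hcls1) and 2 fell. The falls were in Baiap2, which links Rac to WAVE and fell by 0.52 on the log2 scale (edgeR adjusted p = 0.00733), and Nckap1l, the blood-cell subunit of the WAVE complex, which fell by 0.12 (edgeR adjusted p = 0.009996).

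Of 19 tested kinases and phosphatases that act on cofilin and myosin, 3 rose and 0 fell, beside 7.01% and 5.67% of all genes tested. Ssh1 and Ssh2, the slingshot phosphatases that reactivate cofilin, rose by 0.40 (edgeR adjusted p = 0.00883) and 0.34 (edgeR adjusted p = 0.00327) on the log2 scale. Tesk1, a kinase that phosphorylates cofilin, rose by 0.21 (edgeR adjusted p = 0.0134). Of 32 other filament-binding genes, 1 rose and 3 fell. Cotl1, coactosin-like protein, averaged 262 ± 0.81 FPKM in libraries labelled KO and 295 ± 2.94 FPKM in WT libraries, a fall of 0.19 on the log2 scale (edgeR adjusted p = 0.00102). Dstn, destrin, a close relative of cofilin, fell by 0.17 (edgeR adjusted p = 0.0168), and Lasp1 fell by 0.13 (edgeR adjusted p = 0.047). Tln1, talin-1, which couples integrins to actin, rose by 0.077 (edgeR adjusted p = 0.0259). Of 4 tested genes for SRF and its coactivators or targets, Filip1l rose, by 0.18 (edgeR adjusted p = 0.0108). The median log2 fold changes of these 5 lists were 0.12 for formins and Ena/VASP, 0.059 for WAVE and WASP partners, 0.064 for the kinases and phosphatases, 0.066 for other filament-binding genes and 0.052 for SRF genes, beside -0.087 for the actin and myosin genes and -0.0049 for all genes.

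Markers of other cells were read as well, and their summed levels separated the groups in some lists and overlapped in others. Their counts of calls stand beside 7.01% higher and 5.67% lower over all genes tested. Neutrophil markers summed to 86.5 to 90.2 FPKM in libraries labelled KO and 63.1 to 66.5 FPKM in WT libraries, with 2 of 7 higher and 1 lower. Mmp8 made that difference: the other 8 markers summed to 10.8 to 11.4 FPKM in libraries labelled KO and 11.9 to 13.3 FPKM in WT libraries, the opposite direction. Most of that sum was Ngp, at 7.66 ± 0.29 FPKM in libraries labelled KO and 9.24 ± 0.71 FPKM in WT libraries. Mpo, the other marker called higher, averaged 0.55 ± 0.12 FPKM in libraries labelled KO and 0.20 ± 0.062 FPKM in WT libraries. It rose by 1.46 on the log2 scale (edgeR adjusted p = 0.0238), and Ltf was the 1 called lower. Log2 fold changes were positive for 3 of the 7 tested and negative for 4. Megakaryocyte and platelet markers summed to 135 to 147 FPKM in libraries labelled KO and 178 to 185 FPKM in WT libraries, nearly all of it Pf4, while the defining markers Itga2b and Gp9 reached at most 0.0555 FPKM. T and NK cell markers summed to 22.2 to 24.4 FPKM in libraries labelled KO and 19.4 to 21.2 FPKM in WT libraries, and B cell markers to 6.12 to 6.70 FPKM in libraries labelled KO and 5.89 to 6.26 FPKM in WT libraries, with 0 called in either list. The 8 macrophage markers summed to 8357 to 8445 FPKM in libraries labelled KO and 16333 to 16679 FPKM in WT libraries. Lyz2 alone made that gap, and the other 7 summed to 2368 to 2419 FPKM in libraries labelled KO and 2248 to 2334 FPKM in WT libraries. Of the 8, 3 were called higher and 3 lower, beside 14.7% and 13.4% of all tested genes at 10 FPKM or more. Endothelial and epithelial markers summed to 6.18 to 6.79 FPKM in libraries labelled KO and 7.30 to 8.12 FPKM in WT libraries. Of the 6 tested, Pecam1 was called lower (edgeR adjusted p = 0.0487), and 3 log2 fold changes were positive and 3 negative. Without Pecam1 the sums overlapped, at 3.05 to 3.39 FPKM in libraries labelled KO and 3.36 to 4.18 FPKM in WT libraries. The part of these cell types and levels in the calls above was not tested.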

How the data were processed

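Libraries were made from poly(A) RNA, per the labels' protocols, and the reads were processed by the authors with cutadapt 1.9, HISAT2 2.0.4 and StringTie 1.3.4d on mm10, per the submitters' processing notes. The deposited table gives FPKM, normalised by the authors for length and depth, and whole-number estimated counts per gene. In the range 1 to 20, between 36.9% and 40.4% of the deposited estimated counts could be divided by 4, where an even spread would give 25%, so low counts are not plain read numbers.

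Members and gene lists were chosen with earlier results of these data known. Counts, rounded as a safeguard, were filtered (edgeR filterByExpr, minimum 10 per gene, 15 in total), TMM-scaled and tested with the edgeR 4.0.16 quasi-likelihood test in R 4.3.3, without a replicate block, with Benjamini-Hochberg adjustment over 16256 genes and a threshold of 0.05. Alternatives were DESeq2 1.42.0, limma 3.58.1 on log2(FPKM + 0.1) and log2(FPKM + 1), other filters and scalings, the block, single libraries left out and, added after seeing the data, pseudogene counts summed with their parents. Lengths and shared sequence (BLAST 2.17.0) came from GENCODE transcripts, using the longest coding transcript of a gene. Genes named are those called, the 2 most abundant per role, all actins and Arp2/3 subunits tested, the 5 largest uncalled changes and the 3 smallest adjusted p per pathway list; others named were chosen after their values were seen. The results of 1 further pathway list are not reported here.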

Additional observations from a re-analysis of the deposited data

How the results depend on the processing

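All 19 calls kept their direction in every alternative. The counts of higher and lower genes were 4 and 18 with DESeq2, 2 and 12 without the filter, 4 and 20 with an FPKM filter, 3 and 17 with median-of-ratios factors, 2 and 20 with upper-quartile factors, 5 and 14 with limma on log2(FPKM + 0.1), 4 and 14 on log2(FPKM + 1), and 3 and 18 with pseudogene counts added, against 3 and 16 as reported. Shares of all genes called higher and lower changed as well. They were 10.1% and 8.68% with DESeq2, 3.7% and 3.13% without the filter, and 10.9% and 9.59% with the FPKM filter. Median-of-ratios factors gave 6.9% and 5.76%, and upper-quartile factors 5.89% and 6.99%. The limma settings gave 11.6% and 7.64%, then 11.7% and 7.68%. Pseudogene sums gave 6.94% and 5.8%, against 7.01% and 5.67% as reported. Replicate numbers did not pair the libraries (correlations of -0.021, -0.014 and 0.015, with 1 of 3 numbers correlating best with its own), and with a replicate block the counts were 1 and 4. That block gave shares of 3.4% higher and 2.83% lower over all genes. Leaving out 1 library gave 1 to 3 higher and 6 to 9 lower (4.07% to 4.44% higher and 3.18% to 3.66% lower over all genes). In all 6 such fits, each of which has fewer libraries, 6 calls held (Cfl1, Capzb, Capza2, Actn1, Tpm1, Myo9b). Of the named genes not called as reported, DESeq2 called Arpc4, Tmsb4x and Actn4, both limma settings called Actb, the FPKM filter and upper-quartile factors called Arpc2, Actr2, Tpm3 and Myo1f, median-of-ratios factors called Tpm3, and the pseudogene sums called Actr2 and Tpm3. Signs turned for uncalled genes: Mettl3 was -0.0021 with upper-quartile factors and -0.066 to 0.112 with 1 library left out, Actg1 was 0.019 with pseudogene counts added, Actr3 was -0.018 with upper-quartile factors, -0.0070 with pseudogene counts and -0.075 to 0.167 with 1 library left out, and Lcp1 was -0.244 to 0.073 with 1 library left out. The causes were not tested. Low counts limit Myh10, Myl9 and Coro2b.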

Other observations

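Rac1, a GTPase upstream of the WAVE complex that is not in the set, was named after its values were seen because its libraries scattered like those of Pfn1. It had 26.0, 76.7 and 77.1 FPKM in libraries labelled KO, against 78.5, 25.4 and 78.8 FPKM in WT libraries, so 1 library in each group lay low while the others agreed. Tagln2, a filament-binding relative of transgelin, had 88.2, 88.9 and 72.2 FPKM in libraries labelled KO, against 73.3, 89.7 and 71.7 FPKM in WT libraries, with 1 or 2 libraries per group apart from the rest. Several genes of the set lie side by side in the genome. On chromosome 10 Myl6 and Myl6b follow each other, on chromosome 17 Myl12a and Myl12b do, and on chromosome 5 Arpc1a and Arpc1b do. Of these 6 genes 0 were called. Tmsb10 and Capg, which both fell, lie on chromosome 6.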
